A study of Mus musculus with 4 samples.

Results

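Amino acid transporter genes of 7 families (Slc1a, Slc3a, Slc6a, Slc7a, Slc36a, Slc38a and Slc43a) were examined in 4 mouse embryonic stem cell samples. All probes whose target name begins with one of these family stems followed by a digit were taken, which gave 84 of the 45281 probes of the array, for 51 target names among 31490. One of the 51, Slc7a6os, carries the name of its neighbour Slc7a6 on the opposite strand and is not itself a transporter. Because its name meets the rule, it is included wherever transporter genes or Slc7a genes are counted below. The cells grew on a layer of feeder fibroblasts, and their biotin-labelled total RNA was read on Illumina MouseWG-6 bead arrays. The 2i-derived group held the samples 2i-RFP+ and 2i-RFP- (strain C57/B6, passage 5), with 2 arrays each. In the standard-derived group were the lines AFF204#21 (strain C57/B6, passage 11) and R1 (strain 129, passage 26), with 1 array each. 2i usually denotes inhibitors of MEK and GSK3, and per the labels all 4 samples were kept without 2i after derivation. What RFP reports is not given in the labels, and the names given to their arrays have a common stem, so that both may be 1 line. Derivation cannot be told apart from passage number, and the R1 line also differs in strain.

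Cells take up amino acids through membrane carriers that differ in their substrates, in their use of sodium or protons, and in whether they import or exchange. Slc1a genes encode carriers of acidic and small neutral amino acids, and Slc6a genes encode sodium and chloride coupled carriers of neurotransmitters, neutral amino acids, taurine and creatine. Slc7a genes encode carriers of cationic amino acids and the light chains of heteromeric transporters, whose heavy chains are the products of Slc3a1 and Slc3a2. Slc36a, Slc38a and Slc43a genes encode proton-coupled carriers, sodium-coupled carriers of glutamine and other neutral amino acids, and facilitated carriers of large neutral amino acids. Mouse embryonic stem cells are known to depend on outside supply of several amino acids, glutamine and threonine among them.

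A probe counts as detected in a sample where its detection score, averaged over the arrays of the sample, is at least 0.95. By this rule 31 of the 51 genes were detected in at least 1 sample, 29 in at least 2 and 23 in all 4. In single samples the number was 28 in 2i-RFP+, 27 in 2i-RFP-, 29 in AFF204#21 and 25 in R1. Of the Slc7a family 9 of 14 genes were detected in at least 2 samples, of Slc6a 8 of 17, of Slc1a 4 of 7, of Slc38a 4 of 5, of Slc36a 2 of 3, of Slc3a 1 of 2 and of Slc43a 1 of 3. The cationic amino acid carriers Slc7a1 and Slc7a2, the glutamate carriers Slc1a1 and Slc1a2, and Slc3a1, the heavy chain that pairs with the Slc7a9 product, were detected in no sample. The same held for Slc6a2, Slc6a3, Slc6a4 and Slc6a5, which carry monoamines and glycine at nerve cells, and for Slc6a14, Slc6a17, Slc6a18, Slc6a20, Slc7a10, Slc7a12, Slc7a13, Slc36a2, Slc38a3 and Slc43a3. Slc1a6 was detected in AFF204#21 alone and Slc43a2 in 2i-RFP+ alone. An undetected probe says that its signal did not stand out from the background, not that the gene was silent.

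**Figure D1:**
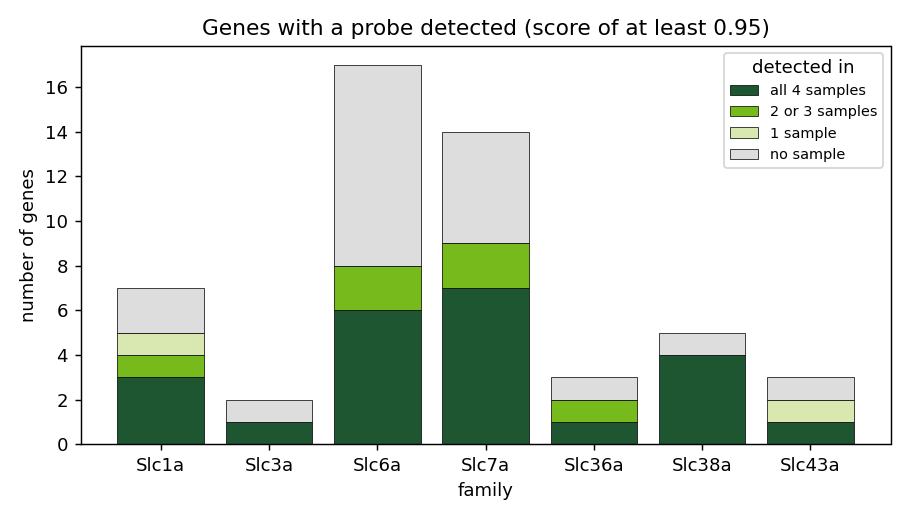
Number of genes in each family by the number of samples in which at least 1 probe was detected. The Slc6a family held 9 genes detected in no sample and the Slc7a family 5.

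The 29 genes detected in at least 2 samples were compared between the 2i-derived and the standard-derived group. Values are normalized bead intensities in log2 units, and since each probe has its own brightness they are compared between samples and not between genes. The group difference was tested with limma across all 14572 genes that passed the same filter, two-sided, with Benjamini-Hochberg adjustment over all of them, and a gene was called where its adjusted p was under 0.05. Of the 29 genes 1, Slc38a5, was called, against 0.165% of all genes tested. It was lower in the 2i-derived samples, as were 0.0618% of all genes by this rule, and 0 of the 29 were called higher, against 0.103%. At an adjusted p under 0.10 the fit held 4 of the 29 (Slc38a5, Slc36a3, Slc7a3 and Slc6a13), against 4.25% of all genes. Of these, Slc36a3 passed the filter only through the 2i-derived samples, so its difference was built in. Leaving out AFF204#21 gave 17 called among the 29 and 6596 among all genes, and leaving out R1 gave 12 and 5335, with the spread then estimated from the 2i-derived samples alone. The p-values measure the spread between these samples, which within the 2i-derived group may be technical. In the same comparison 8 of the 29, Slc36a3 among them, had an unadjusted p under 0.05, against 20.9% of all genes. Log2 differences lay above 0 for 12 of the 29, with a median of -0.08, against 47.3% and a median of -0.02 over all genes. The groups did not overlap for 19 of the 29 transporter genes, against 55.7% of all genes. Slc36a3 and Slc6a7, which passed the filter through the samples of only 1 group, are among the 19. The root mean square difference over the 29 was 0.154 log2 units for 2i-RFP+ against 2i-RFP- and 0.538 for AFF204#21 against R1, and over all genes 0.164 and 0.553. Between repeat arrays it was 0.187 in 2i-RFP+ and 0.209 in 2i-RFP- over the 29, and 0.219 and 0.191 over all genes. The values for 2i-RFP+ against 2i-RFP- compare means of 2 arrays, and those between repeat arrays compare single arrays. Because of this they cannot show whether the 2i-derived samples lay farther apart than repeat arrays do. Against AFF204#21 the root mean square difference was 0.756 for 2i-RFP+ and 0.777 for 2i-RFP- over the 29, and 0.474 and 0.477 over all genes. Against R1 it was 0.929 and 0.942 over the 29, and 0.636 and 0.644 over all genes. Slc38a5 carried much of this, since without it the values over the other 28 were 0.532 and 0.552 against AFF204#21 and 0.767 and 0.776 against R1.

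**Figure D2:**
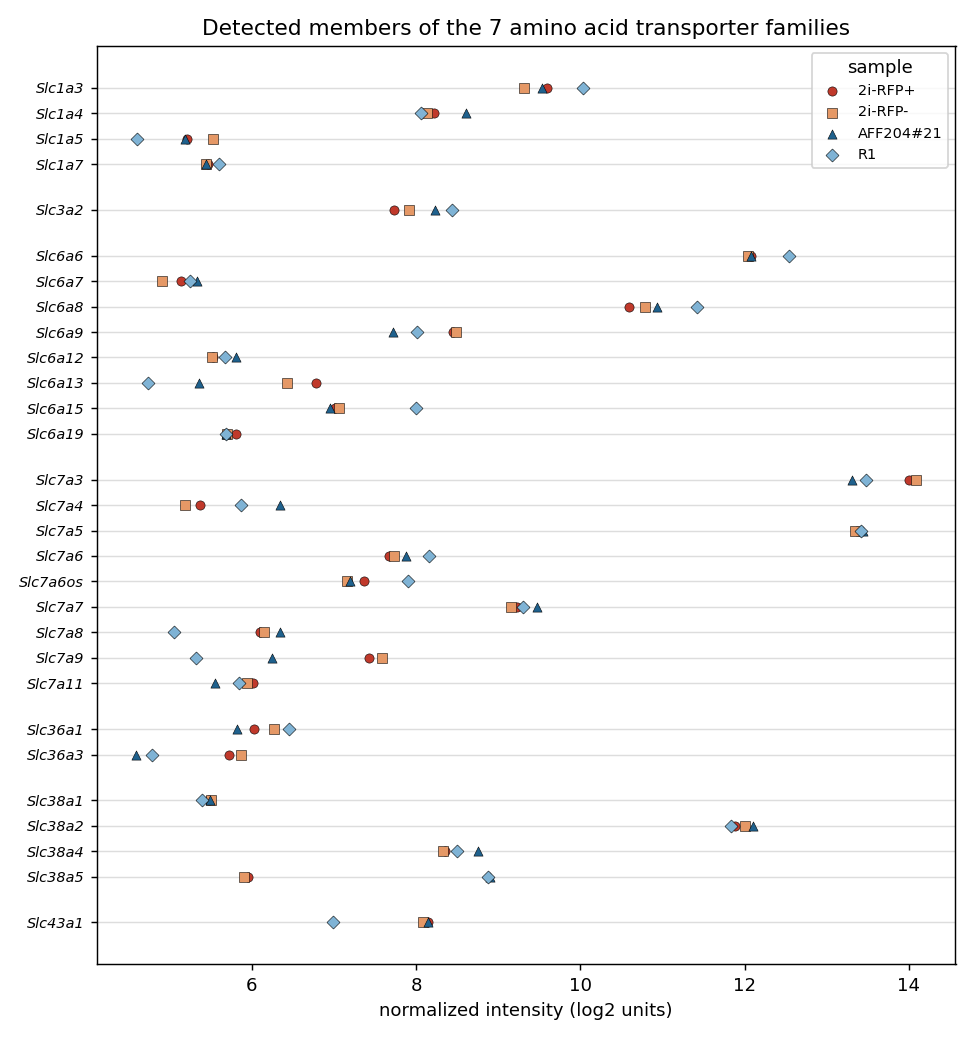
Normalized intensity in log2 units of the 29 detected genes in each of the 4 samples, ordered by family. For Slc38a5 both 2i-derived samples stood near 5.9 and both standard-derived lines near 8.9. Slc7a6os is shown with Slc7a6 because its name meets the rule.

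Slc38a5, which carries glutamine, asparagine, histidine and serine, fell in the 2i-derived samples. Its bead intensities there were 92, 100.4, 97.2 and 91.8 on the 4 arrays, against 501.2 in AFF204#21 and 487.9 in R1, with bead standard errors of 2.45 to 5.30 against 21.9 and 14.9. On the normalized scale it had 5.95 log2 units in 2i-RFP+ and 5.90 in 2i-RFP-, against 8.90 in AFF204#21 and 8.88 in R1. All 4 arrays of the 2i-derived samples were far below both standard-derived lines, and the probe was detected on every array. The mean was 5.93 ± 0.04 log2 units in 2i-derived samples and 8.89 ± 0.01 in standard-derived lines (SD, n = 2 each), a log2 difference of -2.96 ± 0.14 (SE) or 7.78-fold lower (limma adjusted p = 0.0472). The call was lost without background correction, with median scaling, with a robust variance trend, with both 2i-derived samples counted as 1 and without either of them, with adjusted p from 0.0511 to 0.832 in these fits. The log2 difference was -2.97 against AFF204#21, of the same strain and at passage 11, and -2.95 against R1. Slc38a5 is X-linked, and the median log2 difference of the 382 X-linked genes tested was 0.60, the opposite direction. Of these X-linked genes 88.0% lay above 0, against 43.6% of the autosomal genes tested, whose median was -0.05. The groups thus also differ over the X chromosome as a whole, and what lies behind this was not tested. The other tested genes of the Slc38a family were not called. Slc38a2, a carrier whose amount is known to follow amino acid supply, had 11.88 and 12.01 log2 units in 2i-RFP+ and 2i-RFP-, against 12.11 in AFF204#21 and 11.83 in R1. The groups overlapped, with a log2 difference of -0.03, and its other detected probes gave -0.17 and 0.19, the last of them near background. Slc38a4, an imprinted gene in the mouse that is active in placenta and liver, had 8.35 and 8.32 log2 units, against 8.75 and 8.50 (log2 difference -0.29, limma adjusted p = 0.349). Slc38a1, a glutamine carrier, had a log2 difference of 0.05. Slc38a1, Slc38a2 and Slc38a4 follow each other on chromosome 15 with no other protein-coding gene between them in the annotation.

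In measured normalized signal 4 of the 29 transporter genes (Slc38a5, Slc6a13, Slc7a9 and Slc36a3) stood at least 2-fold from both standard-derived lines in the same direction, against 2.16% of all genes tested. A bound is given where a probe was undetected on every array of the lower side of a comparison. The lowest signal of any detected probe then stands in for its own if that was dimmer. With bounds 3 of the 4 were at least 2-fold from both lines, since Slc36a3 was undetected in both and its bounds were 1.54-fold against AFF204#21 and 1.51-fold against R1. For Slc38a5 and Slc6a13 the RefSeq promoter window of GRCm38.p6 ends at the start of the gene, and the 250 bases before that start are shown, on the plus strand, for the gene that fell and for one that lay higher. Capitals mark a match to any of the motifs searched, and only Slc38a5 has one, the E-box CACGTG, whose first base lies 30 bases before the start. The windows are chrX:8271131-8271380 for Slc38a5 and chr6:121300038-121300287 for Slc6a13, with a GC content of 55.2% and 60.8%.
Slc38a5: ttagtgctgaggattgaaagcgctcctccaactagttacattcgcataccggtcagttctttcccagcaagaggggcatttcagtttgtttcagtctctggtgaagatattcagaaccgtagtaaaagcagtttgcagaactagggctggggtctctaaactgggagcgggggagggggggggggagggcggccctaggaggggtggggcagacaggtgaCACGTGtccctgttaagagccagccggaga
Slc6a13: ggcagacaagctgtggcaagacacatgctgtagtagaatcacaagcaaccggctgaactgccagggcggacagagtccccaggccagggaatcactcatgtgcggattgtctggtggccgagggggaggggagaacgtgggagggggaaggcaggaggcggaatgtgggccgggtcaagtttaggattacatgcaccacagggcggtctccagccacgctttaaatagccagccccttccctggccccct
The search covered both strands for TGATGNAA (the C/EBP-ATF response element of amino acid shortage), CACGTG (the E-box bound by Myc-family factors), ATCAAAG (TCF/LEF) and TATAAA (the TATA box). These letters stand in 3.45%, 6.02%, 3.21% and 12.37% of all 32851 windows. Of the 51 genes 33 had a window that was searched. Among these were 2 with TGATGNAA (Slc7a7 and Slc7a11), 6 with CACGTG, 2 with ATCAAAG and 5 with TATAAA. The percentages count windows and these numbers count genes, which can have several starts (3 for Slc6a13), so they were not compared. A match describes the letters in this window and not a bound site.

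Slc7a9, the light chain of a carrier of cystine and cationic amino acids best known from kidney and gut, stood higher in the 2i-derived samples without passing the threshold. It had 7.43 and 7.58 log2 units in 2i-RFP+ and 2i-RFP-, against 6.25 in AFF204#21 and 5.32 in R1. Both 2i-derived samples were above both lines, and R1 was the lowest. The mean was 7.51 ± 0.11 in 2i-derived samples against 5.78 ± 0.66 in standard-derived lines (SD, n = 2 each), a log2 difference of 1.72 ± 0.35 (SE), or 3.30-fold (limma adjusted p = 0.108). A second probe, which passed the filter only through the 2i-derived samples, was undetected on both standard-derived arrays, with intensities of 110.8, 121.7, 124.1 and 115.8 in 2i-derived samples, against 62.3 and 50.6. Another probe of Slc7a9 was detected in no sample. The light chain's partner Slc3a1 was undetected in all 4 samples, with intensities of 52.3 to 61 in 2i-derived samples and of 52.9 and 56.2 in standard-derived lines.

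The other heavy chain, Slc3a2, pairs with several Slc7a light chains and had 7.73 and 7.91 log2 units in 2i-RFP+ and 2i-RFP-, against 8.23 in AFF204#21 and 8.43 in R1. The groups did not overlap, with a log2 difference of -0.51 ± 0.16 (SE, limma adjusted p = 0.187). Its light chain Slc7a5, which imports leucine and other large neutral amino acids, had 13.36 and 13.34 log2 units, against 13.44 and 13.41. That is a log2 difference of -0.08 ± 0.06 (SE, limma adjusted p = 0.537), with no overlap between the groups. The light chain Slc7a6 had a log2 difference of -0.32, and Slc7a11, the cystine and glutamate exchanger, of 0.29 (0.39 by a second probe). Slc7a7, a light chain for cationic amino acids, had 9.23 and 9.15 log2 units in 2i-derived samples, against 9.48 and 9.30 (log2 difference -0.20). Its probes disagreed, with -0.57 and, near background, 0.28. Slc7a8, a light chain for neutral amino acids, set R1 apart, with 6.10 and 6.15 in 2i-derived samples against 6.34 in AFF204#21 and 5.05 in R1, where it was not detected. The 2i-derived samples were at least 1.91-fold above R1. Slc7a6os had a log2 difference of -0.28. Slc7a6 and Slc7a6os are neighbours on chromosome 8, and both were highest in R1.

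Among carriers of cationic amino acids, Slc7a3 had a bead intensity of 16620.7 and 17258.3 in 2i-RFP+ and of 17690.4 and 17070.6 in 2i-RFP-, against 9700.1 in AFF204#21 and 11258.6 in R1. Every array of the 2i-derived samples was above both lines. The normalized means were 14.04 ± 0.07 log2 units in 2i-derived samples and 13.40 ± 0.12 in standard-derived lines (SD, n = 2 each), a log2 difference of 0.65 ± 0.09 (SE) that did not pass the threshold (limma adjusted p = 0.0678). Slc7a3 is X-linked, and its difference lies close to the median of 0.60 over X-linked genes. Slc7a4, an orphan member whose substrate is not settled, had 5.37 and 5.19 log2 units in 2i-derived samples, against 6.34 and 5.87. It was undetected in 2i-RFP- (mean score 0.949), and both 2i-derived values were near background. Both 2i-derived samples were below both lines, with a log2 difference of -0.82 ± 0.21 (SE, limma adjusted p = 0.148).

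**Figure D3:**
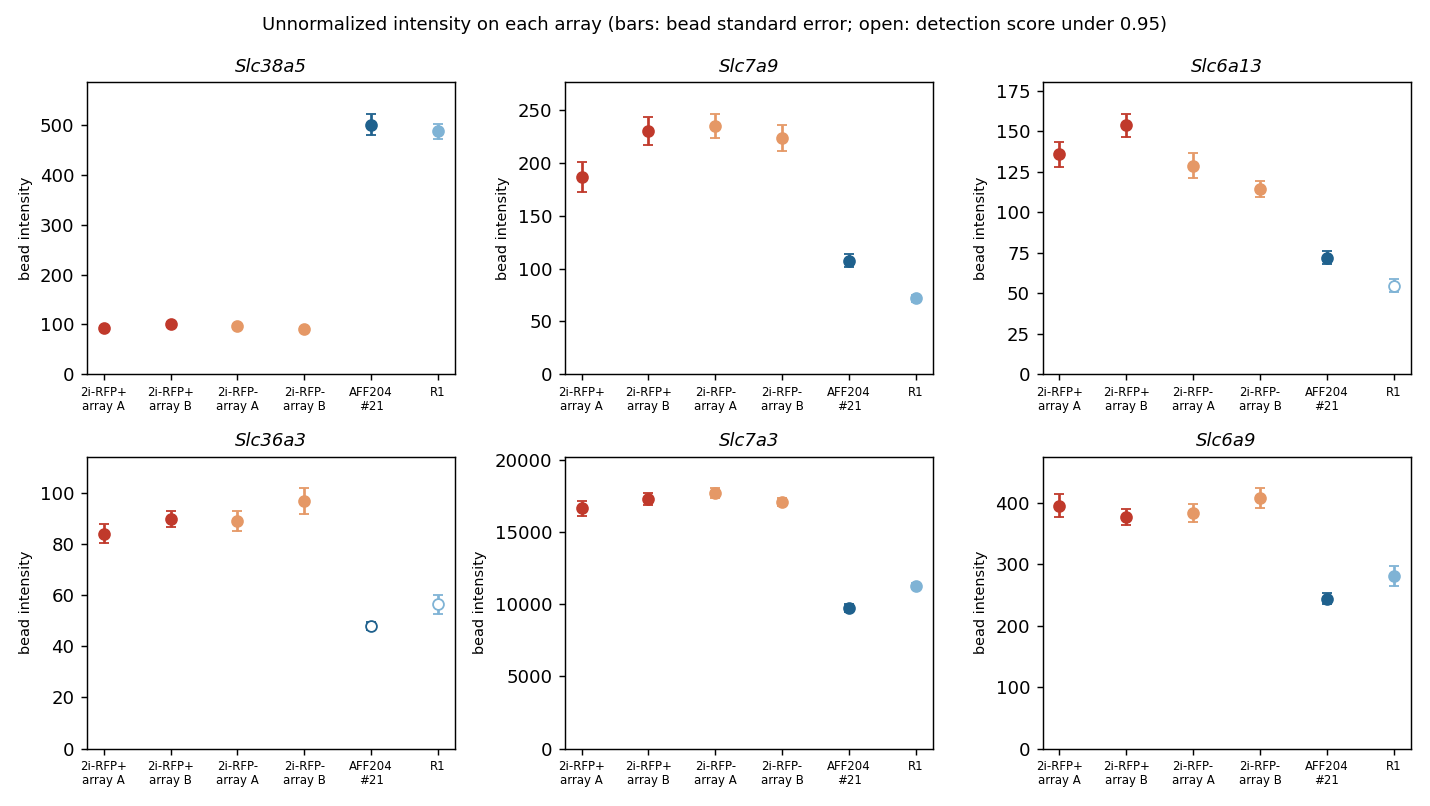
Unnormalized bead intensity on each of the 6 arrays for 6 transporter genes, with the standard error among beads as bars and open symbols where the detection score was under 0.95. Slc38a5 stood at 91.8 to 100.4 in 2i-derived samples against 487.9 and 501.2, and the other 5 genes were brighter on all 4 arrays of the 2i-derived samples than on either standard-derived array. The 6 genes are a choice and do not stand for the 29 tested, of which 17 had a log2 difference below 0. For Slc36a3 the difference was built in by the filter.

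In the Slc6a family the GABA carrier Slc6a13 was the gene farthest apart between the groups. It had 6.78 and 6.43 log2 units in 2i-RFP+ and 2i-RFP-, against 5.36 in AFF204#21 and 4.74 in R1, where it was not detected. Both 2i-derived samples were above both lines. The log2 difference was 1.55 ± 0.27 (SE), or 2.93-fold, and did not pass the threshold (limma adjusted p = 0.0932). This group value includes the undetected signal of R1, and without background correction it was 1.03. It was 1.24 against AFF204#21 and at least 2.65-fold against R1. The betaine and GABA carrier Slc6a12, the next protein-coding gene on chromosome 6, had a log2 difference of -0.22. Slc6a9, the glycine carrier, had 8.45 and 8.48 log2 units in 2i-derived samples, against 7.72 and 8.02 (log2 difference 0.59 ± 0.16, SE, limma adjusted p = 0.157), and the groups did not overlap.

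The taurine carrier Slc6a6 had 12.07 and 12.04 log2 units in 2i-derived samples, against 12.08 in AFF204#21 and 12.54 in R1. R1 stood apart and the other 3 samples were alike, with a log2 difference between the groups of -0.26. The creatine carrier Slc6a8 had 10.59 and 10.78 log2 units in 2i-derived samples, against 10.93 and 11.42. It is X-linked, and its log2 difference of -0.49 (limma adjusted p = 0.257) ran against the X-linked median of 0.60. Slc6a15, which carries branched-chain amino acids and proline, had 7.01 and 7.06 in 2i-derived samples, against 6.95 in AFF204#21 and 8.0 in R1, so that only R1 stood apart. The neutral amino acid carrier Slc6a19 had a log2 difference of 0.07 and the proline carrier Slc6a7 of -0.27. Slc6a7 entered the test through the standard-derived lines and was seen above background on 1 of 4 arrays in the 2i-derived group.

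Of the proton-coupled Slc36a family, Slc36a3 had 5.72 and 5.86 log2 units in 2i-RFP+ and 2i-RFP-, against 4.59 in AFF204#21 and 4.79 in R1. Every 2i-derived array detected it and neither standard-derived array did. It was at least 1.53-fold higher in the 2i-derived samples (limma adjusted p = 0.0671, not passing the threshold). Since it entered the test only through the samples in which it was detected, a difference in this direction was built in. Slc36a1, an exporter of amino acids from lysosomes, had 6.02 and 6.27 log2 units, against 5.82 and 6.45, with overlapping groups and a log2 difference of 0.01. Slc36a3, the undetected Slc36a2 and Slc36a1 lie side by side on chromosome 11.

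Of the glutamate and neutral amino acid carriers of the Slc1a family none was called by limma, against 0.165% of all genes tested. Of the 4 tested 0 had an unadjusted p under 0.05, against 20.9% of all genes, and 4 genes are too few to set against these shares. Slc1a3, a glutamate and aspartate carrier, had 9.60 and 9.31 log2 units in 2i-derived samples, against 9.54 and 10.03, with overlapping groups. Slc1a4, an exchanger of alanine, serine and cysteine, had 8.22 and 8.14, against 8.61 in AFF204#21 and 8.06 in R1. Slc1a7, a glutamate carrier known from retina, had 5.47 and 5.45, against 5.44 and 5.60. The log2 differences of these genes were -0.33, -0.15 and -0.06. The glutamine exchanger Slc1a5 had 5.21 and 5.53 in 2i-derived samples, against 5.18 in AFF204#21 and 4.61 in R1. It was detected in 2i-RFP- and AFF204#21 alone, close to background, and 1 of its 3 probes passed the filter.

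In the Slc43a family the large neutral amino acid carrier Slc43a1 had 8.15 and 8.09 log2 units in 2i-derived samples, against 8.15 in AFF204#21 and 6.99 in R1. The 3 C57/B6 samples were alike and R1 was lower. Its second probe gave the same picture, with intensities of 154.9, 152, 139.9 and 137.4 in 2i-derived samples, against 142.1 in AFF204#21 and 80.4 in R1.

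**Figure D4:**
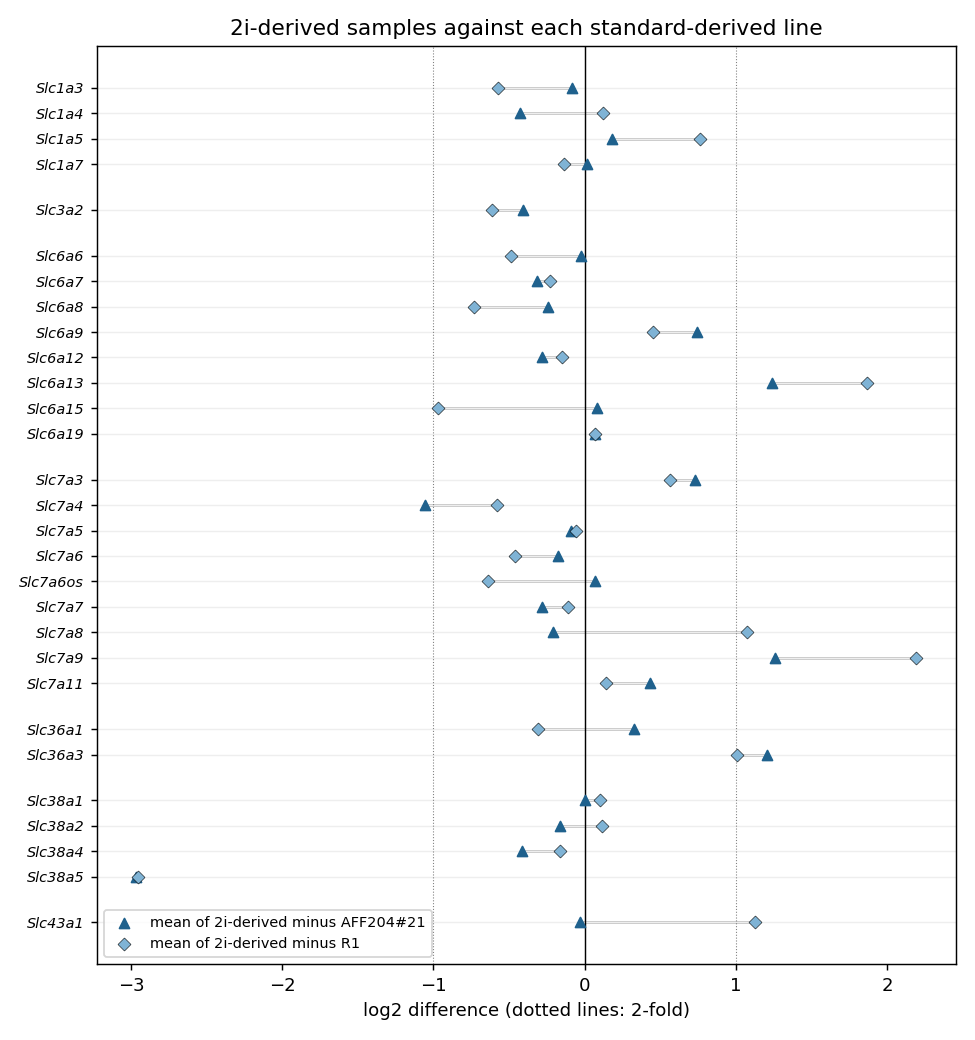
Log2 difference between the mean of both 2i-derived samples and each standard-derived line for the 29 genes. Both comparisons share the 2i-derived samples. The 2i-derived mean of Slc7a4 includes 2i-RFP-, where it was undetected. Measured differences of Slc38a5, Slc6a13 and Slc7a9 lie beyond 2-fold in both. Points of Slc36a3 (both lines), Slc6a13 (R1) and Slc7a8 (R1) are against undetected signal, and the bounds of Slc36a3 and Slc7a8 were under 2-fold.

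Against AFF204#21, the line of the same strain, 5 of the 29 transporter genes stood at least 2-fold apart in measured signal, against 4.3% of all genes tested. With bounds there were 4, Slc38a5 (log2 difference -2.97), Slc7a4 (-1.06), Slc7a9 (1.26) and Slc6a13 (1.24), and the other was Slc36a3. No bound was set for Slc7a4, which was undetected in 2i-RFP- but detected in 2i-RFP+. Against R1 there were 6 in measured signal, against 7.9% of all genes. With bounds there were 4, Slc38a5 (-2.95), Slc7a9 (2.19), Slc43a1 (1.13) and Slc6a13 (at least 2.65-fold), and the others were Slc7a8 and Slc36a3. These comparisons share the 2i-derived samples and have 1 sample on one side, so they carry no test. Without background correction, which draws dim probes together, 1 gene differed at least 2-fold against AFF204#21 and 3 against R1, and Slc38a5 had a log2 difference of -2.43 in the group means. In the group means 4 of the 29 stood at least 2-fold apart in measured signal, against 4.83% of all genes, and 3 with the bound for Slc36a3. Between AFF204#21 and R1, 3 of the 29 did, against 5.72% of all genes, with log2 differences of 1.16 for Slc43a1 and -1.05 for Slc6a15. For Slc7a8, undetected in R1, AFF204#21 was at least 2.21-fold higher. Slc7a9 followed with 0.94. Strain and passage number both differ between these lines and cannot be told apart. Between 2i-RFP+ and 2i-RFP- 0 of the 29 differed at least 2-fold, against 0.0274% of all genes, and the largest log2 difference was 0.36 (Slc6a13).

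**Figure D5:**
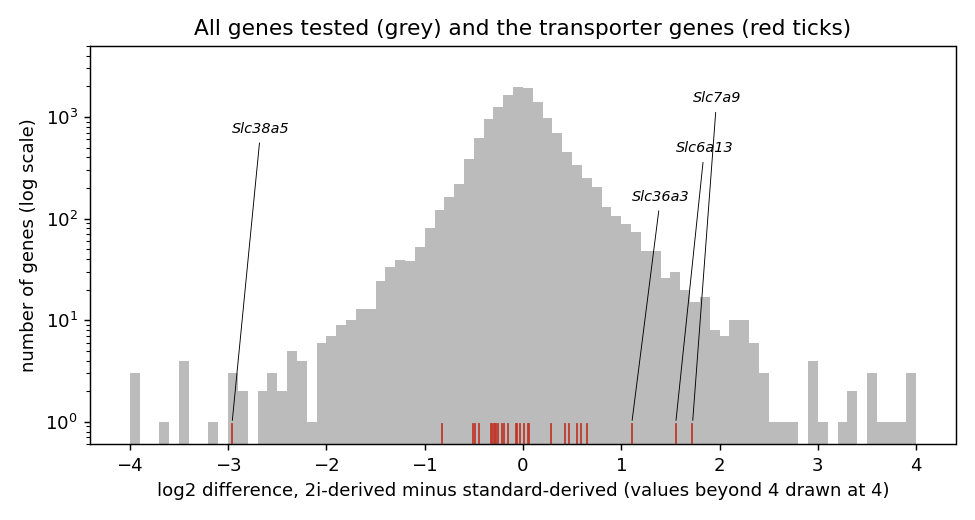
Log2 difference between the 2i-derived and the standard-derived group for all 14572 genes tested (grey bars, number of genes on a log scale) and for the 29 transporter genes (red ticks). Slc38a5 at -2.96, Slc7a9 at 1.72, Slc6a13 at 1.55 (undetected in R1) and Slc36a3 at 1.11 (measured against undetected signal) are named.

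Genes that use or sense amino acids, and other carriers, were examined in 6 lists. Of their 102 genes 88 were tested, and 0 were called by limma, with 24 at an unadjusted p under 0.05 (27.3%, against 20.9% of all genes tested). Slc32a1 and Glul, which passed the filter only through the standard-derived lines, are among the 24. The median log2 difference was 0.18 over 18 genes of the amino acid response, 10 of them above 0, and 0.08 over 9 genes of serine and glycine synthesis, 5 above 0. It was -0.08 over 14 genes of threonine, proline and glutamine metabolism, 5 above 0, and -0.13 over 13 genes of branched-chain, methionine and cystine metabolism, 6 above 0. It was 0.03 over 20 genes of amino acid sensing by mTORC1, 11 above 0, and -0.02 over 14 other carriers, 7 above 0. Not all of these other carriers take free amino acids, since Slc47a1, Slc25a39, Slc15a2 and Slc15a4 are among them. Over the 6 lists 4 of the 88 had group means at least 2-fold apart in measured signal, against 4.83% of all genes tested. These were Glul and 3 of the 14 other carriers, Slc32a1, Slc47a1 (-2.64) and Slc15a2 (-1.52). Slc47a1 had 7.74 log2 units in AFF204#21 and 10.99 in R1, and Slc15a2 had 7.80 and 5.43.

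Single genes of these lists are given with log2 differences that did not pass the threshold. Slc32a1, which loads GABA and glycine into synaptic vesicles, had 4.91 and 4.98 log2 units in 2i-derived samples, where no array detected it, against 6.28 and 6.43. It was at least 2.23-fold lower in the 2i-derived samples (limma adjusted p = 0.0601). Glul, which makes glutamine from glutamate, was undetected on all arrays of the 2i-derived samples and at least 1.94-fold lower there (limma adjusted p = 0.0863). It had 4.98 and 4.96 log2 units in these samples, against 5.94 and 6.38. Slc32a1 and Glul entered the test only through the standard-derived lines, so a lower value in the 2i-derived samples was built in. Tdh, the threonine dehydrogenase on which mouse embryonic stem cells rely, had 12.06 and 11.99 log2 units in 2i-derived samples, against 12.53 and 12.75 (log2 difference -0.62, limma adjusted p = 0.0890). For Tdh the groups did not overlap. Log2 differences were 0.74 for Cebpb and 0.31 for Nupr1, transcriptional regulators of stress responses, and 0.30 for Psat1 and 0.54 for Phgdh, enzymes of serine synthesis. They were -0.48 for Bcat1, which acts on branched-chain amino acids, 0.86 for Ahcy, of methionine metabolism, and 0.86 and 0.43 for Rragb and Fnip1, of amino acid sensing. For the mitochondrial ornithine carrier Slc25a15 the value was -0.44, and Rragb is X-linked.

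The label of embryonic stem cells was checked on markers. All 10 listed stem cell genes, such as Pou5f1, Sox2 and Nanog, were tested and hence detected, with a median log2 difference of 0.03. Picked after their values were seen, Zfp42 had 9.48 and 9.67 log2 units in 2i-derived samples, against 9.29 in AFF204#21 and 12.83 in R1, and Klf4 had 9.22 and 9.73, against 10.33 and 10.37. Of 19 feeder fibroblast markers 18 were tested (Postn was not), with a mean level of 8.71 and 8.55 log2 units in 2i-RFP+ and 2i-RFP-, against 8.72 in AFF204#21 and 9.09 in R1. Their median log2 difference was -0.27, and 2 of the 18 lay above 0, against 47.3% of all genes tested. Of 14 endoderm markers 9 were tested, with means of 9.05 and 9.0, against 9.45 and 9.56, while Gata4, Sox17, Afp, Foxa2 and Ttr were not. Their median log2 difference was -0.62, with 1 of the 9 above 0 (Sox7, at 1.09), against 47.3% of all genes tested. By limma 0 of the 9 were called, against 0.165% of all genes, and 5 had an unadjusted p under 0.05, against 20.9%. Some carriers, among them Slc1a3, Slc6a6 and Slc6a15, were highest in R1, where the feeder markers were also highest. Others went the other way and were lowest in R1, among them Slc43a1, Slc7a8, Slc7a9 and Slc6a13. The part of other cell types in these values was not tested, and in bulk RNA fewer cells of a type and less RNA per cell cannot be told apart.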

How the data were processed

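Bead intensity per probe was deposited for 6 arrays of 4 samples. Per the file headers the intensity values were summarised with Illumina GenomeStudio 1.0.6 without normalization. The deposited detection score is a fraction from 0 to 1. The deposited bead count and bead standard deviation, on the scale of the signal, gave bead standard errors. The deposited log2 table has no stated method. Its values equal the mean quantile-normalized log2 intensity per target (r = 1 in each column across 31444 targets, 95% of differences within 9e-04), its column medians were 5.91, 5.91, 5.91 and 5.92, and it served as an alternative. Of the same arrays 24 further columns were not used.

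The neqc function of limma 3.58.1 in R 4.3.3 (offset 16) corrected background from the detection score, scaled by quantiles and took log2. Repeat arrays were averaged per sample. A probe needed a mean score of at least 0.95 in at least 2 samples, and the brightest such probe stood for its gene. The test was lmFit and eBayes with an intensity trend. It was also run on simulated data with independent samples and the same spread in both groups. The groups here differ in spread and the 2i-derived samples may be 1 line, so that run cannot vouch for these p-values. Arrays detected 42.3% to 43.9% of probes, transporter values rest on 18 to 73 beads, and the number of arrays limits precision. Of 31490 target names 13430 matched a symbol and 5596 a synonym of GRCm38.p6, 12439 were kept as given and 25 turned into dates or numbers were left out; 7 genes of these families under other target names were not counted. Members and lists were chosen with earlier results of these data known. Genes detected in at least 1 sample are named, with per-sample values for those called, at least 2-fold apart, or among the 3 brightest of a family, and the first 2 by p of each list. Alternatives changed background correction, scaling, probe summary, filter, variance trend and samples. Not every undetected gene is reported here by name.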

Additional observations from a re-analysis of the deposited data

How the results depend on the processing

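The direction of the group difference held for Slc38a5, Slc7a9, Slc6a13, Slc36a3, Slc7a3, Slc6a9, Slc7a4 and Slc3a2 under each alternative that was run. It also held for many other transporter genes, Slc7a5 (-0.09 to -0.04) and Slc6a19 (0.003 to 0.12) among them. A kept direction therefore does not set the named genes apart, and for Slc36a3 it was built in by the filter. The log2 difference ran from -2.99 to -2.43 for Slc38a5 (adjusted p from 3.73e-09 to 0.832), from 0.79 to 2.19 for Slc7a9, from 1.03 to 1.87 for Slc6a13 and from 0.75 to 1.20 for Slc36a3, as measured against undetected signal. The number of transporter genes called, 1 in the report, was 0 without background correction, with median scaling, with a robust trend and with 2i-RFP+ and 2i-RFP- as 1 sample. At an unadjusted p under 0.05 these fits held 8, 8, 8 and 5 of the 29. Without 1 sample the number called ran from 0 to 17. It was 0 without 2i-RFP+ or without 2i-RFP-, 17 without AFF204#21 and 12 without R1, and in the last pair of fits the spread comes from both 2i-derived samples alone. The count at least 2-fold apart in measured signal between the groups was 2 in the deposited log2 table, against 4. Without background correction and in the deposited table it was 1 and 1 against AFF204#21 (5 in the report), 3 and 2 against R1 (6), 1 and 1 against both lines (4, an alternative chosen after seeing the data) and 0 and 0 between AFF204#21 and R1 (3). Both settings leave the background in the values. The sign turned when 1 sample was left out for Slc1a4 (-0.43 to 0.12), Slc1a7 (-0.14 to 0.015), Slc36a1 (-0.31 to 0.33), Slc38a2 (-0.16 to 0.11), Slc43a1 (-0.029 to 1.13), Slc6a15 (-0.97 to 0.080), Slc7a6os (-0.64 to 0.069) and Slc7a8 (-0.21 to 1.07). It also turned for Slc7a8 in the deposited table (-0.011), and none of these genes was called in the report. Over all genes 24 were called, against 34 with the mean of detected probes, 31 without a filter, 37 with a score of at least 0.99, 12 in the deposited table, 6596 without AFF204#21 and 5335 without R1, and 0 in the remaining fits. A score of at least 0.99 left 24 transporter genes, and 29 were left when every array of a sample had to detect a probe. No paired analysis was possible because the labels give no replicate numbers that tie samples across groups.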
